A study of Mus musculus with 6 samples.

Results

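The growth hormone axis of the liver was followed through 10 genes chosen by name, namely the receptor gene Ghr, the kinase gene Jak2, the transcription factor genes Stat5a and Stat5b, the feedback inhibitor genes Cish, Socs2 and Socs3, the repressor gene Bcl6, and Igf1 and Igfals, which encode secreted products. These 10 genes, of the 18820 with a probe set assigned to 1 gene only, were represented by 12 probe sets. Where a gene had several, the one with the highest mean over the 6 arrays was used. The LERKO group comprised livers of 3 female Alb-cre/ERα fl/fl mice, in which cre recombinase driven by the albumin promoter, a promoter of hepatocytes, removes the floxed estrogen receptor α alleles. The CT group comprised livers of 3 female ERα fl/fl mice without cre, so that effects of cre and of ERα loss cannot be told apart. All mice were on the C57BL/6J background. Each liver was hybridised to 1 Affymetrix Mouse Gene 1.1 ST array. Mice had free access to food on a light-dark cycle, and the age and fasting state of the mice on the arrays are not given in the sources used here. Replicates are labelled as biological, with nothing on litters, so p-values reflect only the spread between these mice.

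Growth hormone binds its receptor on hepatocytes and activates the receptor-bound kinase JAK2, which phosphorylates STAT5a and STAT5b. The phosphorylated STAT5 proteins enter the nucleus and bind a short palindrome in the DNA, from which they switch on genes such as Igf1 and the inhibitors Cish and Socs2 and lower others such as Bcl6. In rodents growth hormone is secreted in pulses in males and more continuously in females, and much of the sex difference in liver gene expression depends on this pattern and on STAT5b.

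The palindrome bound by STAT5 can be written TTCNNNGAA, which is its own reverse complement. It was searched in the RefSeq promoter windows of mouse build GRCm38.p6, which run from 250 bases before to 50 bases after each transcription start. Of the 10 genes, 9 had windows in this table, 15 in all, and Socs2 was the exception. A match was found in 6 of these 15 windows, which belong to Cish, Socs3, Bcl6 and Igfals, whereas 8.3% of all 32851 windows held one. The stretches of Cish and Bcl6 are given because these had the largest fold changes among the 10 genes. Those of Socs3 and Igfals are given because they also held a match, so they are no comparison for its presence. Capitals mark each match, and a match is a description of the sequence, not evidence of binding.
Cish, chr9:107296654-107296683, plus strand: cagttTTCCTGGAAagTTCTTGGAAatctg
Bcl6, upstream window, chr16:23988942-23988990, minus strand: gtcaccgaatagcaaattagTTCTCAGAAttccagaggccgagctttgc
Bcl6, downstream window, chr16:23981343-23981471, minus strand: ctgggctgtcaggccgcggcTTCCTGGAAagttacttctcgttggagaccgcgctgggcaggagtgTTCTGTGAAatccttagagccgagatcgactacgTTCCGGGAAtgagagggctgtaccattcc
Socs3, chr11:117969492-117969540, minus strand: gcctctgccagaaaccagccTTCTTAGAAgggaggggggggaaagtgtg
Igfals, chr17:24878153-24878201, plus strand: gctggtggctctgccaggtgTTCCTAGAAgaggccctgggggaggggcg
In Cish the matches begin at positions 1 and 12, counted from the start base as position 1. The downstream Bcl6 window holds 3 matches, beginning 168, 122 and 88 bases before that start, and windows with 3 or more matches made up 0.0335% of all windows. The match lies 154 bases before the start in Socs3 and 58 bases before it in Igfals. A further Igfals window held a match 236 bases before its start. None of the windows of Ghr, Jak2, Stat5a, Stat5b and Igf1 held these letters.

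The deposited values are robust multichip average (RMA) signals on the log2 scale, on which a difference of 1 is 2-fold. Probe sets that reached a signal of 100 (6.644 on the log2 scale) in at least 1 array were tested, which left 10633 of 35556, and between 9452 and 9865 reached it in each array. Esr1, the targeted gene, was at 6.75, 7.06 and 6.77 in LERKO liver and at 8.45, 8.78 and 8.29 in CT liver. Hepatocyte markers were even, with summed signals of 68340 to 71180 in LERKO and 68600 to 72370 in CT liver over the 8 of 10 measured. Sums of 5 cholangiocyte markers were 152 to 162 in LERKO and 174 to 220.5 in CT liver. Those of 2 red blood cell markers were 178 to 192 and 199 to 285, and in each list only 1 gene passed the filter. Sums of Kupffer cell, sinusoidal endothelium, stellate cell, lymphocyte and neutrophil markers overlapped between the groups. Genes of other organs were high in a pair of arrays. The summed signal of 6 adrenal cortex markers was 7139 in LERKO replicate 2, against 81.0 or less in the other LERKO mice and 61.4 to 63.0 in CT mice. That of 6 measured pancreas markers was 97.3 to 111 in LERKO mice, against 1787 in CT replicate 3 and 104 or less in the other CT mice. Muscle and squamous epithelium markers were also highest in CT replicate 3, at summed signals of 1079 and 1502. The number of arrays limits the precision of all values below.

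Of the 10 genes, 9 passed the signal filter and Socs3 did not. By limma, with p adjusted by Benjamini-Hochberg over the 10633 probe sets tested, 0 of the 9 passed an adjusted p of 0.05, and 0% of all probe sets did. Esr1, the targeted gene, did not pass either, with a log2 fold change of −1.65 and an adjusted p of 0.149 in limma. An adjusted p above 0.05 is therefore no evidence of an unchanged level. Where a signal of 100 was required in all 6 arrays, the other reading of the filter in the methods, 3 probe sets passed, and 0 of the 7 genes then tested. At an unadjusted p under 0.05 there were 3 genes, Ghr and Cish lower and Bcl6 higher in LERKO liver. Of all probe sets 6.98% had such a p, 425 with lower and 317 (2.98%) with higher values in LERKO. In relative terms, 7 of the 10 genes had lower and 3 had higher mean signals in LERKO than in CT liver. Their median log2 fold change was −0.06 (−0.11 without LERKO replicate 3), against −0.0099 over all probe sets tested. Every LERKO mouse lay below every CT mouse for Ghr and Cish, and for no gene was the reverse seen. Groups without overlap were found for 13.0% of all probe sets, 7.13% with lower and 5.91% with higher values in LERKO. In bulk liver, fewer cells of a type and less RNA per cell cannot be told apart.

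**Figure D1:**
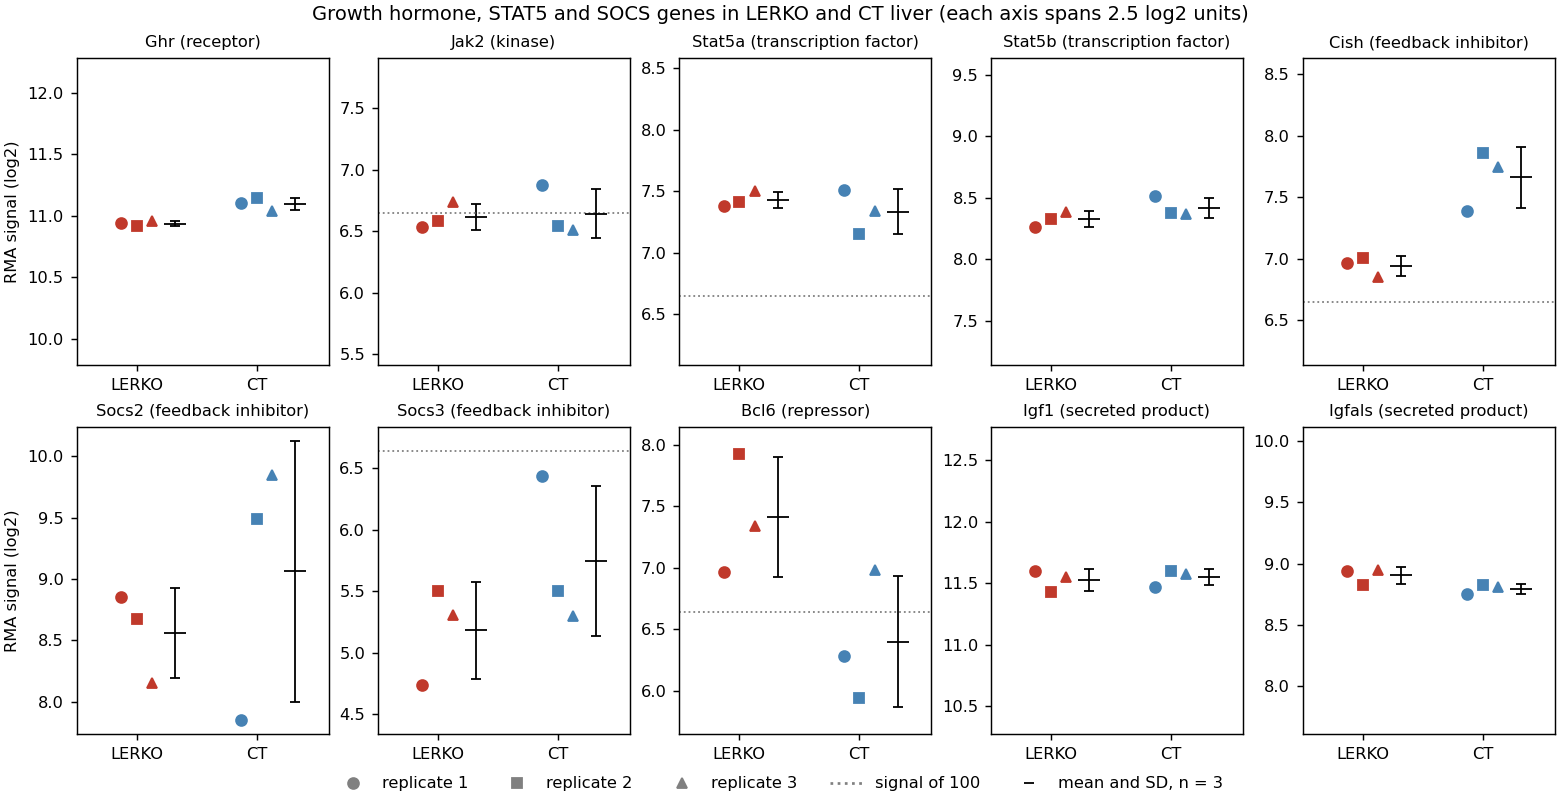
RMA signal on the log2 scale (y axis) of the 10 genes in 3 LERKO and 3 CT livers, each mouse as a point beside its group mean and SD, and a signal of 100 as a dotted line where it falls inside the panel. Every panel spans the same number of log2 units, so that the close values of Ghr, Igf1 and Igfals can be set beside the wide spread of Socs2 and Bcl6. Cish shows the widest gap between groups, with the highest LERKO mouse at 7.00 and the lowest CT mouse at 7.38.

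Among the genes that receive and relay the signal, differences between LERKO and CT liver were small. Ghr, which encodes the growth hormone receptor, was at 10.94, 10.92 and 10.95 in LERKO liver, against 11.10, 11.14 and 11.04 in CT liver. The LERKO mice lay within 0.04 of each other and all below the CT mice, with a gap of 0.087 between the groups. Ghr had a log2 fold change of −0.16, with a standard error (SE) of 0.06 and a 95% confidence interval of −0.31 to −0.0057, so that LERKO liver had 89.5% of the CT level. This gave an unadjusted p of 0.0440 and an adjusted p of 0.703 in limma. An exact two-sided permutation test gave p = 0.1, the smallest that 3 against 3 mice allow. With 1 array left out the log2 fold change of Ghr ranged from −0.19 to −0.14.

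Jak2, which encodes the kinase on the receptor, was near the signal limit at 6.53, 6.58 and 6.74 in LERKO liver and 6.87, 6.54 and 6.51 in CT liver. It reached a signal of 100 only in LERKO replicate 3 and CT replicate 1. The groups overlapped and the log2 fold change was −0.03 (95% confidence interval −0.31 to 0.26, adjusted p = 0.972 in limma). Without LERKO replicate 1 it was 0.02, and without CT replicate 1 it was 0.09.

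Stat5a and Stat5b encode near-identical transcription factors and lie on the same chromosome, so that some signal may be shared between their probe sets. Stat5a was at 7.38, 7.41 and 7.50 in LERKO liver and at 7.51, 7.15 and 7.34 in CT liver. Stat5b, the form that carries most of the sex-dependent growth hormone response in mouse liver, was at 8.26, 8.33 and 8.39 in LERKO liver and at 8.51, 8.38 and 8.37 in CT liver. The groups overlapped for both genes, and for both the highest of the 6 mice was CT replicate 1. For Stat5a the log2 fold change was 0.09 (95% confidence interval −0.16 to 0.34, adjusted p = 0.853 in limma). For Stat5b it was −0.09 (95% confidence interval −0.27 to 0.088, adjusted p = 0.813 in limma). Differences of more than about 1.27-fold in either gene lie outside these intervals.

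The feedback inhibitors had larger estimated differences between LERKO and CT livers, but also differed more between mice of a group. Among these inhibitors only Cish had groups without overlap. Cish encodes CIS, an inhibitor that STAT5 induces and that blocks further STAT5 activation at the receptor. It was at 6.96, 7.00 and 6.85 in LERKO liver, against 7.38, 7.86 and 7.75 in CT liver. The 3 LERKO mice lay within 0.15 of each other, the CT mice within 0.47, and a gap of 0.38 separated the groups. Cish thus had a log2 fold change of −0.72 (SE 0.13, 95% confidence interval −1.04 to −0.41), which is 60.6% of the CT level. Cish ranked 13 by p among all probe sets, with an unadjusted p of 0.00109 and an adjusted p of 0.703 in limma, and the exact permutation test gave p = 0.1. Leaving out 1 array at a time moved the log2 fold change between −0.86 and −0.63. Under the 19 alternative settings examined, Cish had an unadjusted p under 0.05 in 19 and an adjusted p from 0.317 to 0.991.

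Socs2 encodes an inhibitor that marks the growth hormone receptor for degradation, and mice without it grow large. It was at 8.86, 8.67 and 8.15 in LERKO liver and at 7.85, 9.49 and 9.84 in CT liver. CT replicate 1 was the lowest and CT replicates 2 and 3 the highest of the 6 mice, so that the LERKO mice spanned 0.71 log2 units and lay inside the 1.99 log2 units spanned by the CT mice. The within-group SD of Socs2 was at the 99.1st percentile of all probe sets tested. The estimate was a log2 fold change of −0.50 (SE 0.51, 95% confidence interval −1.72 to 0.72, adjusted p = 0.836 in limma). It was −1.11 without CT replicate 1 (unadjusted p = 0.00391, adjusted p = 0.795 in limma), with all remaining CT mice above all LERKO mice, and −0.11 without CT replicate 3. A dimmer probe set of Socs2 ranked CT replicates 2 and 3 highest as well (log2 fold change −0.33, adjusted p = 0.836 in limma).

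Socs3, an inhibitor that mainly answers IL-6 and STAT3 in liver and also dampens growth hormone signalling, was below a signal of 100 in all 6 arrays. Its brighter probe set was at 4.74, 5.50 and 5.31 in LERKO liver and at 6.44, 5.50 and 5.30 in CT liver. CT replicate 1 stood above the other mice, and the log2 fold change was −0.56, or −0.22 without that mouse. In a limma fit over the whole table the adjusted p was 0.944. The other probe set, still dimmer, had a log2 fold change of −0.09.

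**Figure D2:**
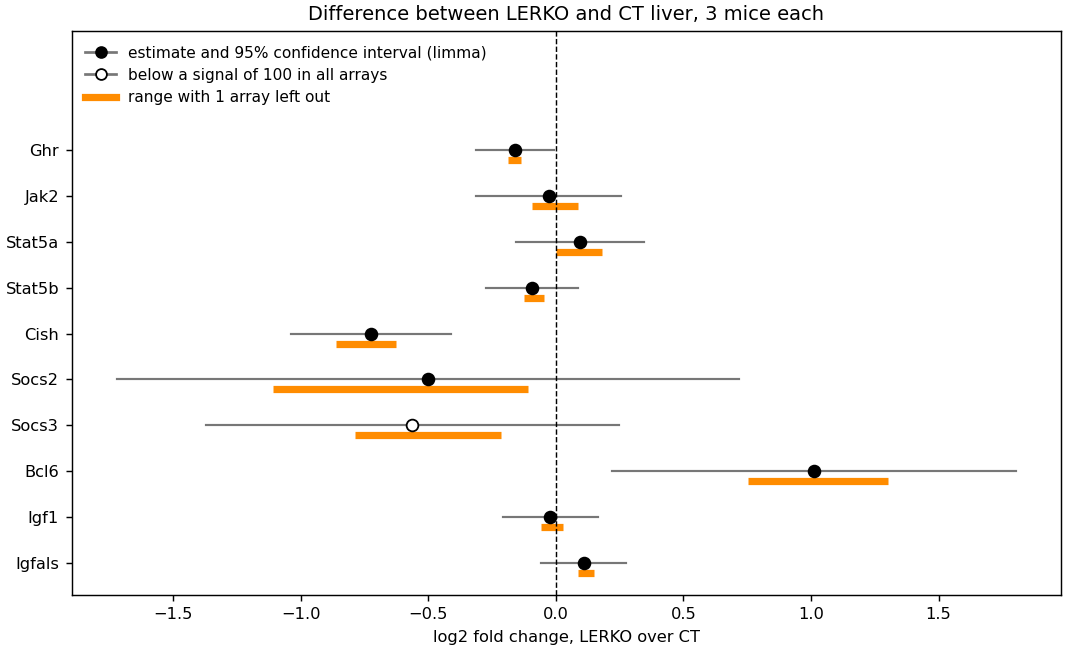
Log2 fold change of LERKO over CT liver (x axis) for each of the 10 genes, as the limma estimate with its 95% confidence interval, and below it the range of the estimate with 1 of the 6 arrays left out. The open circle marks Socs3, which was below a signal of 100 in all arrays. The intervals of Ghr, Cish and Bcl6 do not include 0, and the leave-one-out range of Socs2 runs from −1.11 to −0.11.

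Bcl6 encodes a repressor that growth hormone lowers in rodent liver and that binds many of the same DNA sites as STAT5. It was at 6.96, 7.93 and 7.34 in LERKO liver, against 6.28, 5.94 and 6.98 in CT liver. LERKO replicate 1 and CT replicate 3 were nearly equal, so the groups overlapped by 0.02 log2 units, while the other LERKO mice lay above all CT mice. All LERKO mice reached a signal of 100, whereas CT replicate 3 alone did so among CT mice. Bcl6 had a log2 fold change of 1.01 (SE 0.33, 95% confidence interval 0.22 to 1.80), or 2.02-fold higher in LERKO. The unadjusted p was 0.0196 and the adjusted p 0.703 in limma, and the exact permutation test gave p = 0.2. A difference of at least 2-fold in either direction was found for 0.611% of all probe sets tested. The mouse with the highest Bcl6, LERKO replicate 2, is the one with the adrenal markers, and the highest CT mouse, CT replicate 3, is the one with the pancreas markers. The log2 fold change was 0.75 without LERKO replicate 2 and 1.30 without CT replicate 3. Without both it was 1.05 (unadjusted p = 0.00259, adjusted p = 0.383 in limma). All remaining LERKO mice then lay above all remaining CT mice, as for 17.4% of all probe sets. The part of RNA from other organs was not tested further.

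The secreted products of the axis were close in LERKO and CT livers. Igf1 encodes insulin-like growth factor 1, through which the liver carries growth hormone action to other tissues. It was at 11.60, 11.43 and 11.55 in LERKO liver and at 11.47, 11.60 and 11.57 in CT liver. The 6 mice lay within 0.18 log2 units, and the log2 fold change of −0.02 had a 95% confidence interval of −0.21 to 0.17 (adjusted p = 0.966 in limma). Its sign turned to 0.03 without LERKO replicate 2. The interval of the LERKO level relative to CT was 0.866-fold to 1.12-fold.

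Igfals encodes the acid-labile subunit, which holds IGF-1 in a large complex in the circulation and is made in hepatocytes under growth hormone. It was at 8.94, 8.82 and 8.95 in LERKO liver and at 8.75, 8.82 and 8.81 in CT liver. LERKO replicate 2 met the highest CT mouse, and the other LERKO mice lay above. The log2 fold change was 0.11 (95% confidence interval −0.06 to 0.28, adjusted p = 0.773 in limma), and it ranged from 0.09 to 0.15 with 1 array left out.

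Set beside each other mouse by mouse, the genes did not move as a block. LERKO replicate 3 had the lowest Cish of all mice and the lowest Socs2 of its group. CT replicate 1 had the highest Jak2, Stat5a, Stat5b and Socs3 of the 6 mice and the lowest Socs2 and Igfals, and its Cish was the lowest of the CT group. CT replicates 2 and 3 had the highest Cish and the highest Socs2. Relative to the mean of all 6 mice, Socs2 was at −0.96 in CT replicate 1 and at 1.03 in CT replicate 3, whereas Igf1 stayed between −0.11 and 0.06.

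**Figure D3:**
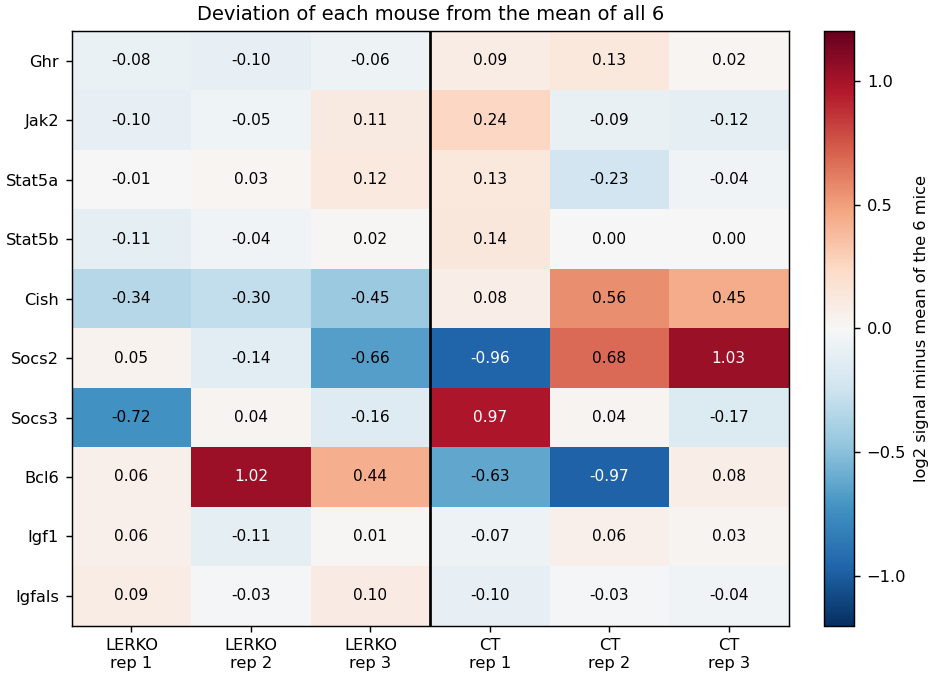
Deviation of each mouse (columns, LERKO then CT) from the mean of all 6 mice, in log2 units, for the 10 genes (rows), with the value printed in each cell. Cish is below its mean in all 3 LERKO mice, at −0.34, −0.30 and −0.45, and the largest deviations belong to Socs2, Bcl6 and Socs3.

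For Cish and Bcl6 the genes of most similar profile were sought among the other 7894 tested probe sets assigned to 1 gene, as the smallest root mean square difference between centred log2 profiles over the 6 mice. The 6 arrays are shared by all genes, so the likeness is a description. Nearest to Cish were Bach2, a transcriptional repressor of lymphocytes, at 0.125 log2 units, Osgin1, an oxidative stress-induced gene, at 0.169, and Hyou1, a chaperone of the endoplasmic reticulum, at 0.170. Bach2 was at 6.56, 6.38 and 6.15 in LERKO liver and at 6.63, 7.10 and 6.99 in CT liver. Like Cish, these 3 genes had their lowest CT value in CT replicate 1 and their highest in CT replicate 2.

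Nearest to Bcl6 were Dio1, the deiodinase that activates thyroid hormone, at 0.314 log2 units, Zbtb16, a repressor of the same zinc finger family as Bcl6, at 0.317, and Cidec, a lipid droplet protein, at 0.336. Dio1 was at 10.04, 9.96 and 10.04 in LERKO liver and at 9.03, 8.62 and 9.76 in CT liver. Zbtb16 was at 7.96, 8.22 and 8.28 in LERKO liver and at 7.01, 7.29 and 7.85 in CT liver. For both, all LERKO mice lay above all CT mice, which was not so for Bcl6, and CT replicate 3 was the highest of the CT mice, as for Bcl6. Cidec was highest in LERKO replicate 2, at 6.94 beside 5.66 and 5.93 in the other LERKO mice and 5.78, 5.35 and 5.93 in CT mice. The summed signal of 6 measured adipocyte markers was also highest in that mouse, at 433, against 116 and 139 in the other LERKO mice and 125 to 156 in CT mice, and its part in the Cidec value was not tested.

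The neighbours of Socs2 and Socs3 were chosen for the text after their values were seen. The nearest was Egfr, the epidermal growth factor receptor, which is higher in male than in female mouse liver, at a root mean square difference of 0.169 log2 units beside an SD of 0.695 of Socs2 itself. Egfr was at 10.17, 10.08 and 9.46 in LERKO liver and at 9.54, 10.73 and 10.99 in CT liver. The next was Smad9, a mediator of bone morphogenetic protein signals, at 7.32, 7.37 and 6.47 in LERKO liver and at 6.63, 8.46 and 7.82 in CT liver. Lepr, the leptin receptor, which also signals through JAK2, was at 6.28, 6.28 and 5.30 in LERKO liver and at 5.21, 7.61 and 6.79 in CT liver. In Socs2, Egfr, Smad9 and Lepr, LERKO replicate 3 and CT replicate 1 were the low mice and CT replicates 2 and 3 the high ones. Nearest to Socs3 were Gbp4 and Psmb9, both induced by interferon, and Rps23rg1, which like Socs3 were highest in CT replicate 1, at 7.52, 7.99 and 7.43.

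**Figure D4:**
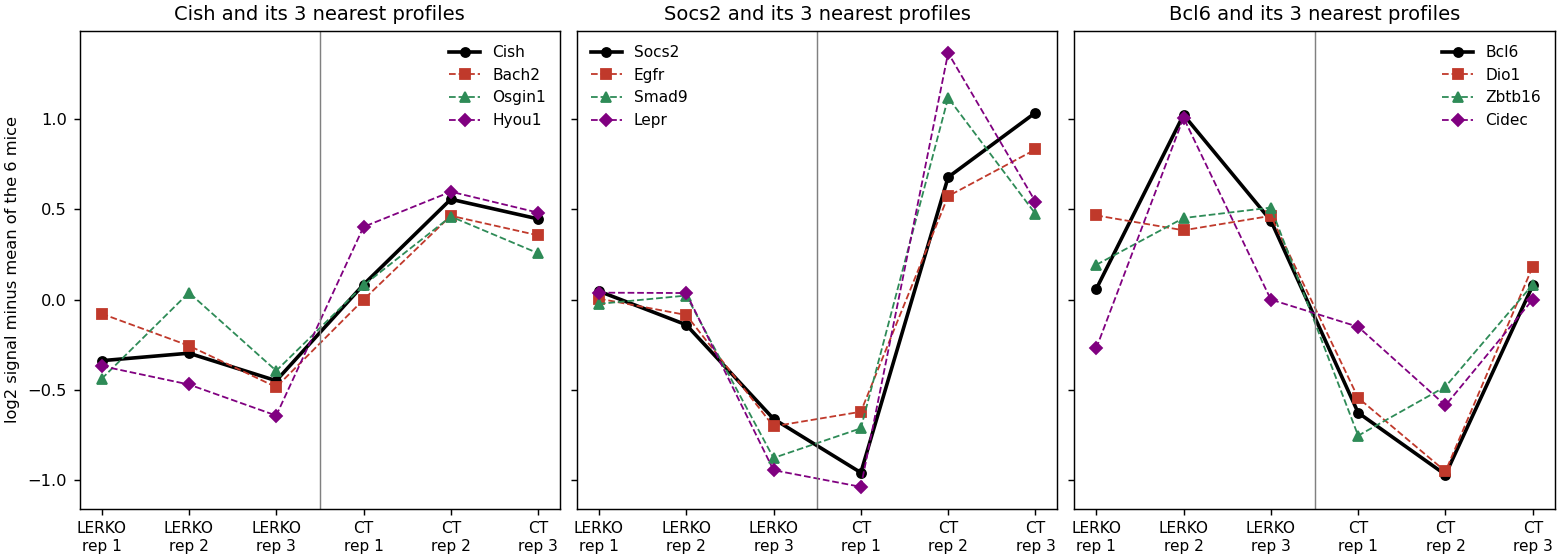
Log2 signal minus the mean of the 6 mice (y axis) for Cish, Socs2 and Bcl6 (black) and the 3 tested genes of nearest profile to each (coloured), with LERKO mice left of the line and CT mice right of it. Lines join the values of a gene across mice and stand for no order in time. The Cish group separates LERKO from CT, and the Socs2 group splits the CT mice. Dio1 and Zbtb16 are high in LERKO and intermediate in CT replicate 3. In Bcl6, CT replicate 3 lies just above LERKO replicate 1.

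Other genes of growth hormone and cytokine signalling were examined as a list of 25, of which 23 were measured and 16 passed the signal filter. By limma 0 of the 16 passed an adjusted p of 0.05. Of the 16, 6 had higher and 10 lower mean signals in LERKO and the median of their log2 fold changes was −0.07. Groups were without overlap for 2 of them, or 12.5%, beside 13.0% of all probe sets. Without CT replicate 3 it was so for 8 of the 16, beside 29.2% of all probe sets, and the median was −0.11. Of these 8, 6 were lower in LERKO, which is 37.5% of the 16 beside 18.6% of all probe sets. The median was −0.03 without CT replicate 2. Stat3, the transcription factor of the IL-6 response, was at 9.44, 9.48 and 9.44 in LERKO liver and at 9.61, 9.91 and 9.60 in CT liver. No LERKO mouse reached the CT mice (log2 fold change −0.25, SE 0.10, adjusted p = 0.703 in limma). Ptpn11, the phosphatase SHP-2, had 0.12 and Socs7 −0.17, with overlapping groups.

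Of 14 genes of the IGF system, 8 passed the filter and 0 passed the adjusted p in limma, with a median log2 fold change of 0.01 that ranged from −0.04 to 0.03 with 1 array left out. Igfbp1, a binding protein that insulin represses, was at 8.24, 9.30 and 8.23 in LERKO liver and at 9.40, 9.24 and 8.86 in CT liver. LERKO replicate 2 lay among the CT mice, and the log2 fold change was −0.58 (adjusted p = 0.746 in limma). Igfbp4 had 0.12, with all LERKO mice above all CT mice, and Igfbp5 −0.39 with overlapping groups. Of the 9 growth hormone-responsive transcription factors measured, all passed the filter, 4 had higher and 5 had lower mean signals in LERKO, and their median log2 fold change was −0.0016 (−0.03 to 0.04 with 1 array left out). Onecut1 (HNF6), a hepatocyte factor that growth hormone induces, averaged 8.19 ± 0.29 in LERKO liver and 8.78 ± 0.35 in CT liver (SD, n = 3 each), with overlapping groups and a log2 fold change of −0.60 (SE 0.21, adjusted p = 0.703 in limma). Cux2, a repressor found mainly in female liver, had a log2 fold change of 0.53 with overlapping groups.

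Genes whose sex bias depends on growth hormone were split into female-biased and male-biased lists. Of 34 female-biased genes, 25 were measured and 24 passed the filter. Of the 24, 17 had higher and 7 lower mean signals in LERKO than in CT liver, their median log2 fold change was 0.11, and 0 passed an adjusted p of 0.05 in limma. The median ranged from 0.08 (without LERKO replicate 3) to 0.14 (without LERKO replicate 2) with 1 array left out. Without both LERKO replicate 2 and CT replicate 3, 14 had higher and 10 lower means. With all 6 mice, the mean deviation over the 24 genes was −0.12, 0.02 and 0.32 in LERKO replicates 1, 2 and 3. It was −0.09, −0.04 and −0.08 in CT replicates 1, 2 and 3, so LERKO replicate 1 was the lowest mouse. All LERKO mice lay above all CT mice for 5 (Trim24, Cyp3a16, Acot4, Cyp17a1 and Acot3, the last pair named after their values were seen), and the 5 make up 20.8% of the 24. This was so for 5.91% of all probe sets. Without CT replicate 3 it was so for 6 of the 24 (25.0%), beside 10.5% of all probe sets. The reverse, seen for 0 of the 24 with all arrays, was then seen for 2 (8.33%), beside 18.6% of all probe sets. The list was written with earlier results of these data known, so these shares are a description only. At an unadjusted p under 0.05 in limma, 5 of the 24 were higher and 2 were lower in LERKO. Of all 10633 probe sets tested, 317 (2.98%) were higher and 425 lower at that p. The 2 lower genes, Ntrk2 and Atp6v0d2, were named after their values were seen. They had log2 fold changes of −0.56 and −0.55, with overlapping groups. Trim24, a transcriptional cofactor, was at 8.12, 8.19 and 8.15 in LERKO liver and at 7.76, 7.90 and 7.88 in CT liver (log2 fold change 0.31, SE 0.07, adjusted p = 0.703 in limma). Cyp3a16, which shares much of its sequence with other Cyp3a genes, so that its signal is uncertain, was at 7.71, 7.24 and 9.11 in LERKO liver and at 6.03, 6.09 and 6.74 in CT liver. A1bg and Prom1, which with Cyp3a16 had the widest range in this list, split mice of the same group. A1bg was at 9.11, 9.47 and 11.28 in LERKO liver and at 9.51, 11.01 and 9.65 in CT liver, and Prom1 at 4.92, 5.59 and 6.12 in LERKO liver and at 5.70, 6.84 and 4.74 in CT liver.

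Of 36 male-biased genes, 32 were measured and 27 passed the filter. Of the 27, 6 had higher and 21 lower mean signals in LERKO, their median log2 fold change was −0.20, and 0 passed an adjusted p of 0.05 in limma. Groups were without overlap for 1, lower in LERKO, which is 3.7% of the list beside 7.13% of all probe sets. Without the genes added because the study lists them as changed in mice lacking ERα in all tissues, which are other mice than these, 6 of 23 had higher and 17 lower means, the median was −0.20 and 0 were without overlap. The gene without overlap is Alas2, 1 of those added, which makes heme precursors in red cells and is also in the red cell marker list, with a log2 fold change of −0.41. Nox4, an oxidase that makes hydrogen peroxide, had −0.34, and Mup20, a urinary pheromone protein, −0.71. The mean deviation over the 27 genes was −0.31 in LERKO replicate 3, against 0.52 in CT replicate 3 and −0.15 in CT replicate 1. Without CT replicate 3, 12 genes were higher and 15 lower in LERKO, and the median was −0.02. Cyp4a12a, a cytochrome P450 typical of male liver, was at 5.82, 5.13 and 3.75 in LERKO liver and at 3.93, 4.90 and 8.17 in CT liver. Slco1a1, a male-biased anion transporter, was at 6.04, 6.03 and 5.19 in LERKO liver and at 5.06, 5.94 and 8.03 in CT liver. Cyp4a12a, its near copy Cyp4a12b, Slco1a1 and Mup20 were all highest in CT replicate 3, the mouse that also had the highest Socs2 and Egfr and the pancreas, muscle and squamous markers.

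**Figure D5:**
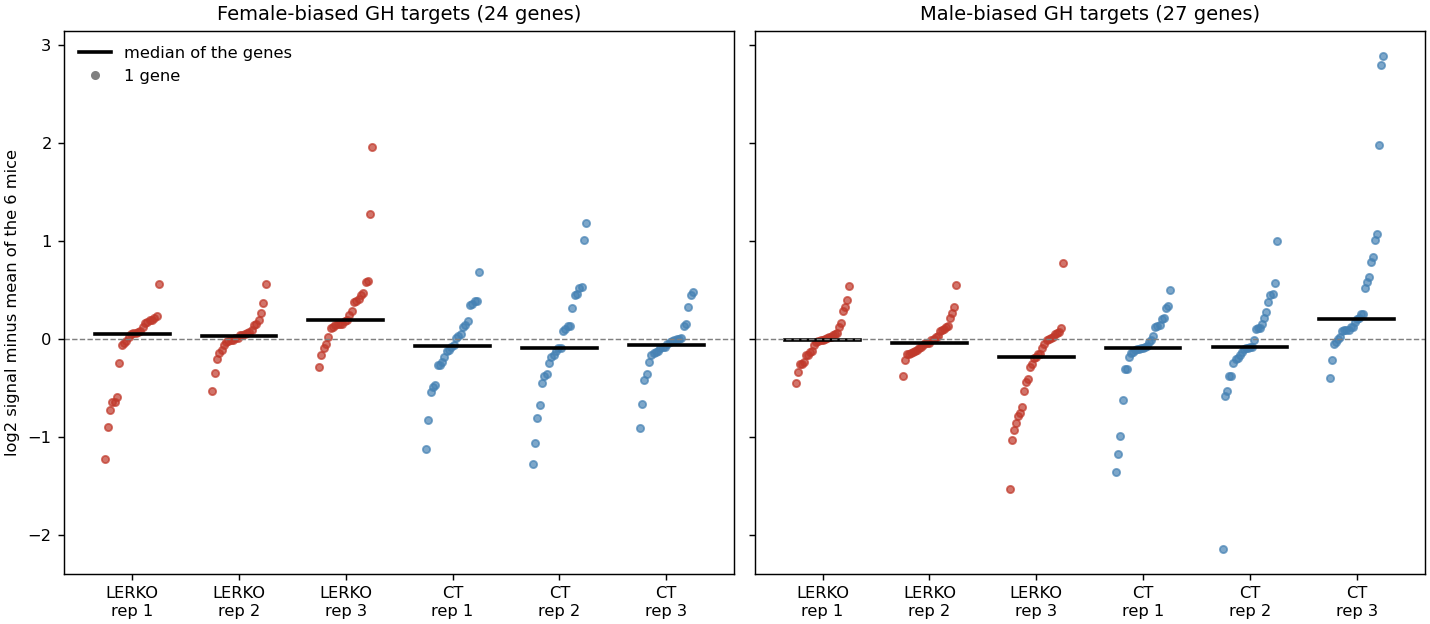
Log2 signal minus the mean of the 6 mice (y axis) of 24 female-biased (left panel) and 27 male-biased (right panel) genes that passed the signal filter, 1 point per gene in each LERKO and CT mouse, with the median as a bar. In the right panel CT replicate 3 holds the highest points, and LERKO replicate 3 lies lowest by its median.

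The remaining lists bear on signals that meet the axis, and in each 0 genes passed an adjusted p of 0.05 in limma. Of 20 genes of the IL-6, STAT3 and acute phase list, 12 had higher and 8 lower means in LERKO, and the median log2 fold change was 0.03 (−0.0070 to 0.06 with 1 array left out). Il6ra, the IL-6 receptor, was at 9.67, 9.62 and 9.46 in LERKO liver and at 8.81, 9.01 and 9.34 in CT liver. Every LERKO mouse exceeded every CT mouse (log2 fold change 0.53, SE 0.14, adjusted p = 0.703 in limma), whereas Steap4 and Orm2 had −0.18 and 0.27. Of 13 fasting and feeding genes, 4 had higher and 9 lower means in LERKO, and their median was −0.13. The median was −0.04 without CT replicate 2, −0.19 without CT replicate 3 and −0.28 without both LERKO replicate 2 and CT replicate 3. G6pc, the last enzyme of glucose release, was at 11.37, 11.62 and 11.90 in LERKO liver and at 12.05, 12.21 and 12.47 in CT liver. G6pc and Irs2, an insulin signalling adaptor, were lower in all LERKO than in all CT mice, with log2 fold changes of −0.62 and −0.65 (adjusted p = 0.703 in limma for each), and Srebf1, a regulator of lipid synthesis, had −0.38. These 2 genes without overlap make up 15.4% of the 13, near the 13.0% of all probe sets. By quantitative PCR the paper reports no significant change of glucose-6-phosphatase or of SREBP-1c, a Srebf1 transcript, in LERKO livers.

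Of 10 clock genes, 6 had higher and 4 lower means in LERKO, and their median was 0.01 (−0.03 to 0.04 with 1 array left out). Among them Bhlhe40 had −0.51, Per2 0.26 and Ciart 0.52. All 4 PPARγ and lipid storage genes that passed the filter had higher means in LERKO, with a median of 0.36 and overlapping groups. Without LERKO replicate 2, 3 had higher means and 1 (Fabp4, at −0.23) a lower mean, and the median was 0.12. Cd36, a fatty acid transporter, had 0.43, and Fabp4 and Cidec were highest in LERKO replicate 2, the mouse with the adipocyte markers. Of 8 immediate-early genes, 2 had higher and 6 lower means in LERKO, their median was −0.28, and Jund, Klf6 and Fosl2 had −0.27, −0.33 and −0.29. LERKO replicate 2 and CT replicate 1 were the high mice, with mean deviations of 0.35 and 0.50, and the median was 0.05 without CT replicate 1 and −0.43 without LERKO replicate 2.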

How the data were processed

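Liver RNA, extracted with Trizol and purified on RNeasy columns, was measured on 3 LERKO and 3 CT arrays. The authors normalised the arrays with RMA in the oligo package and deposited 1 table of log2 signals per probe set, in which the build behind the array annotation is not given in the sources used here. Of 35556 probe sets, 21218 were assigned to 1 gene, 1881 to several and 12457 to none by GEO's platform annotation, and 21185 symbols were updated through gene identifiers. The methods remove signals below 100 across samples. This was read as leaving out probe sets that reached 100 in no array, by which 0 probe sets were called. It may mean 100 in all 6 arrays, which was run as an alternative and called 3, Esr1 among them. The paper reports 3 genes in LERKO liver at a false discovery rate of 5%, likewise with Esr1 among them. As in the methods, groups were compared with limma 3.58.1 in R 4.3.3 at a false discovery rate of 5%. The script was tested on simulated data. The 10 genes, the gene lists and the tests were chosen with earlier results of these data known. Named genes are the 10, in each list the 3 of smallest p (in sex-biased lists also the 3 of widest range), and the 3 nearest profiles of Cish and Bcl6. Those of Socs2 and Socs3 were chosen after their values were seen, as were the female-biased genes Cyp17a1, Acot3, Ntrk2 and Atp6v0d2. Some male-biased genes (Alas2, Nox4, C6, Ttc39c and Nat8) were added from the study's list for mice lacking ERα in all tissues, on which several other sex-biased genes also stand, and leaving them out is an alternative added after the data were seen. Alternatives covered filter, variance model, normalization, test, pairing and left-out arrays. Replicate numbers were not used as pairs.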

Additional observations from a re-analysis of the deposited data

How the results depend on the processing

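None of the 10 genes passed an adjusted p of 0.05 in limma, or in the methods' t-test, under any alternative in which it was tested. Jak2 and Bcl6 could not be tested where a signal of 100 was required in all 6 arrays, and Socs3 only without a filter. The number of probe sets called was 3 where a signal of 100 was required in all 6 arrays (Esr1, Creld2 and Hyou1, all lower in LERKO) and 1 (Esr1) with an intensity trend in the variance model, and it ranged from 0 to 1 with 1 array left out. The 1 is an unnamed probe set, called without LERKO replicate 3. With the replicate block, 0 were called and 574 had an unadjusted p under 0.05, of which 2 were among the 10 genes. Same-numbered mice deviated with correlations of −0.157, −0.0731 and −0.137, and differently numbered mice with 0.00509 to 0.161. Deviations were taken within groups of 3 mice, so values this weak cannot decide whether the numbers pair mice. Without the filter 1739 probe sets had an unadjusted p under 0.05, by the methods' t-test 455, without LERKO replicate 1 414, without CT replicate 3 1183, and without both arrays with genes of other organs (LERKO replicate 2 and CT replicate 3) 1136. With all arrays, the number of the 10 genes without overlap was 2 in the main setting. It was 3 with median centring and with quantile normalization once more, each adding Igfals (higher in LERKO). With the mean of all probe sets of a gene it was also 3, adding Socs3 (lower in LERKO). It ranged from 3 to 4 with 1 array left out (4 without CT replicate 1 and 4 without CT replicate 3). Without both arrays with genes of other organs it was 5. The share of all probe sets without overlap was 22.6% without CT replicate 1, 29.2% without CT replicate 3 and 44.1% without both arrays. Fewer mice overlap less often. Ghr and Cish were among them under each of these. Bcl6 had an unadjusted p under 0.05 in 14 of 18 alternatives, and Ghr in 11 of 19. The log2 fold change of Igf1 turned positive with array weights (0.0095), without LERKO replicate 2 (0.0294), CT replicate 2 (0.0055) or both arrays with genes of other organs (0.0408), and ranged from −0.0590 to 0.0294 with 1 array left out. That of Jak2 turned positive without LERKO replicate 1 (0.0157) or CT replicate 1 (0.0886), and ranged from −0.0931 to 0.0886. The cause was not tested. The other values for the 10 genes kept their direction. Values near or below a signal of 100, as for Jak2, Socs3 and the lower Bcl6 arrays, are limited by the dimness of the probe sets.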
